A study of Mus musculus with 6 samples.

Results

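Genes for keratins and other intermediate filament proteins were examined in mouse embryo fibroblasts lacking p38α (KO, 3 cultures) and in wild-type fibroblasts (WT, 3 cultures). The genes were Krt7, Krt8, Krt14, Krt18, Krt19, Vim, Nes, Des, Lmna and Lmnb1, and the set was chosen on the array signals of Krt19 and Krt18, which are higher in KO. A gene was taken as measured where the accession of a gene probe led to its symbol. This held for 9 of the 10, each with 1 probe, out of 10634 genes named on the array. Des, the desmin gene of muscle, had no probe matched to it and was not analysed here. Because the difference between KO and WT served to choose the set, the differences of these 9 genes are given as a description, with their error and without a p-value.

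KO cultures carried the p38α-/- genotype and WT cultures the wild-type gene. All cultures had the mixed 129/svev × C57Bl/6 background, had become immortal spontaneously under the 3T3 protocol and stably expressed the oncogene H-RasG12V, so the WT cells were transformed as well. They were grown for 72 h and taken at 70% to 90% confluence. The labels speak of biological replicates and do not say whether the 3 cultures of a genotype were separately derived lines, so the p-values measure the spread between these samples only. Comparing the genotypes addressed how p38α, a stress-activated kinase with tumour suppressor activity, acts through transcription in Ras-transformed cells.

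Intermediate filaments are the rope-like part of the cytoskeleton. Keratins are built from pairs of an acidic type I and a basic type II chain, and a keratin chain left without a partner is normally degraded. Krt18 pairs with Krt8, and Krt19 with Krt8 or Krt7, in simple epithelia, whereas Krt14 belongs to the basal layer of stratified epithelia. Fibroblasts rely on the type III protein vimentin, nestin is a type IV protein of progenitor cells, and the type V proteins, the lamins, line the nucleus. Loss of keratins and gain of vimentin is the classical filament pattern of mesenchymal cells.

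With 1 array per culture, precision rests on the 3 arrays of each genotype. Of 19801 gene probes, 8677 to 10232 were marked above background per array, with the fewest on KO replicate 3. The median background beside the spots was 61 intensity units on that array and 49 to 53 on the other arrays. Array-to-array correlations of log2 signal across probes were 0.986 to 0.996 within KO, 0.996 to 0.997 within WT and 0.9505 to 0.963 between KO and WT arrays, and probes are not independent replicates. Each file holds 1 colour channel, taken as that of the culture; the labels put a pool of the same genotype in the other, and were it the pool's channel, each genotype would have been measured on repeats of 1 RNA. Mapk14, which encodes p38α, had background-subtracted intensities of 17.6, 18.6 and 8.35 in KO replicates 1, 2 and 3, against 60.8, 70.6 and 68.8 in WT. Its probe was marked above background in 1 of 3 KO cultures and in 3 of 3 WT cultures. The fibroblast markers Sparc, Col1a2 and Twist1 were above background on every array, while Thy1, Lum, Fap and Postn were near background on all of them.

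Krt19, a type I keratin of simple and glandular epithelia, was among the genes with the largest differences on the array. Its background-subtracted intensity was 2677, 3195 and 2173 in KO replicates 1, 2 and 3, against 19.5, 25.3 and 16.6 in WT replicates 1, 2 and 3. The KO cultures were all high and the WT cultures all low, and the lowest KO value was 85.8 times the highest WT value. Krt19 was marked above background in 3 of 3 KO cultures and in 1 of 3 WT cultures. On the normalized log2 scale, where a constant of 50 is added to every signal, Krt19 stood at 11.26 ± 0.15 in KO and 6.27 ± 0.07 in WT (SD, n = 3 each), a difference of 5.0 (SE 0.09, 95% interval 4.80 to 5.20). By the size of that difference Krt19 ranked 9 from the top among 19590 probes tested.

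Krt18, the type I partner of Krt8 in simple epithelia, was also higher in KO but far dimmer. Its background-subtracted intensity was 125, 137 and 91.2 in KO replicates 1, 2 and 3, against -0.353, 3.87 and 6.06 in WT. All 3 KO cultures were above background and no WT culture was. Normalized, Krt18 averaged 7.31 ± 0.12 in KO and 5.85 ± 0.10 in WT in log2 units (SD, n = 3 each), a difference of 1.47 (SE 0.08, 95% interval 1.28 to 1.66). Because WT was near background, the fold can only be bounded, at 2.16-fold or more. That bound sets the KO mean against, for each WT array, the higher of the probe's own signal and the lowest signal marked above background there. The size of both keratin differences depends on the constant added to dim signals: without it they were 6.49 for Krt19 and 4.003 for Krt18.

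Across the 3 KO cultures Krt19 and Krt18 varied alike, with coefficients of variation of 19.1% and 20.2% in background-subtracted intensity. These intensities are not scaled between arrays. Vim varied nearly as much (18.2%), so the spread was not particular to the 2 keratins, while Nes, Lmna and Lmnb1 had 5.57%, 3.58% and 7.82%. For Krt19 and Krt18, KO replicate 2 had the highest and KO replicate 3 the lowest intensity. That array had fewer probes above background than any other, and its part in that order was not tested. Without KO replicate 3 the log2 differences were 5.05 for Krt19 and 1.53 for Krt18. In RNA from whole cultures, fewer cells of a type and less RNA per cell cannot be told apart.

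**Figure D1:**
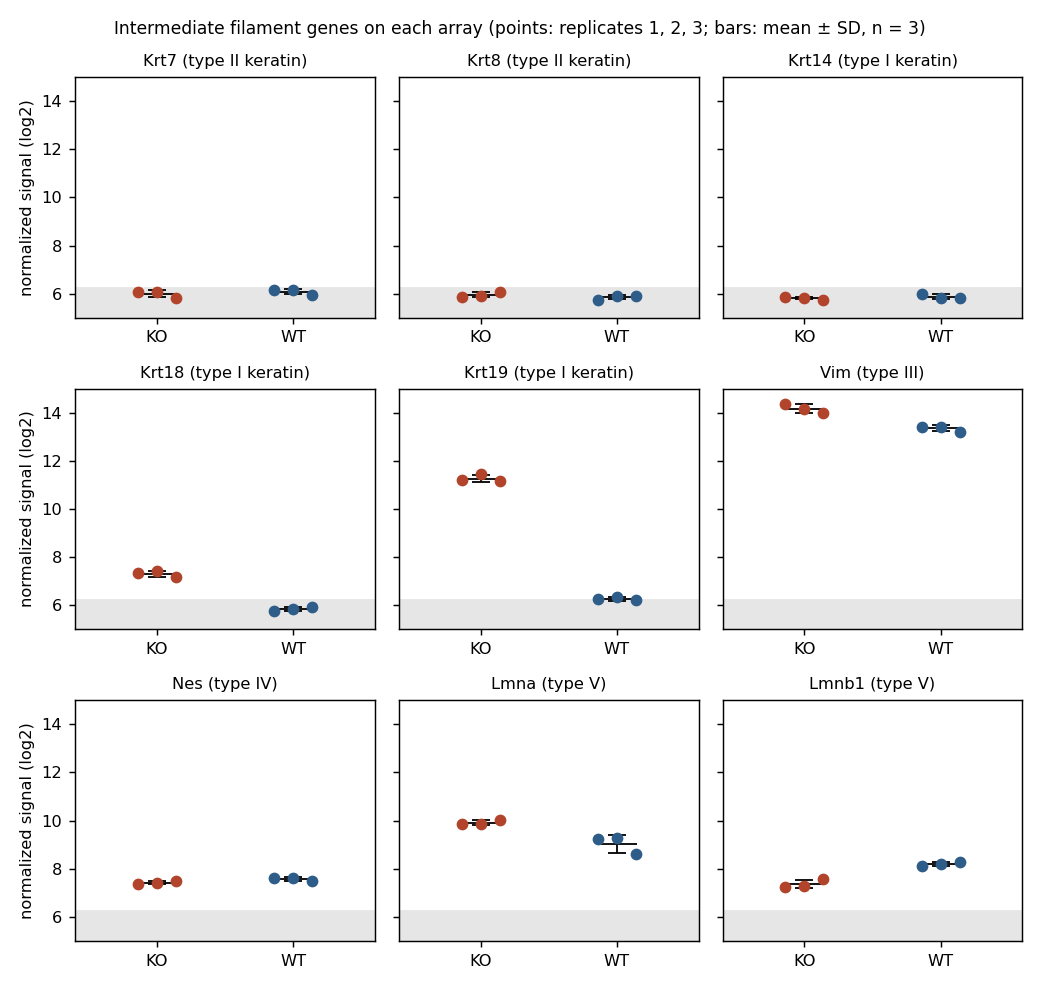
Normalized log2 signal of the 9 measured genes on each KO array (left in each panel) and WT array (right), with points for replicates 1, 2 and 3 from left to right and bars for mean ± SD (n = 3). Grey marks the range below the highest of the arrays' lowest signals marked above background; Krt18 leaves it in KO only, Krt19 lies far above it in KO and at its edge in WT, and Krt7, Krt8 and Krt14 stay in it in both genotypes.

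The type II keratins that pair with Krt18 and Krt19 were not detectable above background in either genotype. Krt8 had intensities of 4.40, 5.81 and 14.5 in KO and 0.0385, 4.87 and 4.73 in WT, all marked near background, with a log2 difference of 0.11 (95% interval -0.06 to 0.28). Krt7 had 14.96, 13.6 and 1.77 in KO and 15.6, 15.2 and 6.52 in WT, likewise near background throughout, with a difference of -0.09 (95% interval -0.31 to 0.12). Krt14, a type I keratin whose own partner is Krt5, had 3.99, 2.52 and -3.36 in KO and 8.23, 2.70 and 1.72 in WT, also near background on all arrays, with a difference of -0.06 (95% interval -0.22 to 0.10). The KO and WT values of these 3 genes overlapped. No fold is given for them, since at this signal a low RNA level cannot be told from none.

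Krt8 and Krt18 are next to each other on chromosome 15, with no other protein-coding gene between them in the GRCm38.p6 gene table, yet the Krt18 probe was above background in KO and the Krt8 probe was not. On the other side of Krt18 lies Eif4b, a translation initiation factor, which averaged 10.31 in KO and 10.81 in WT in log2 units (difference -0.50, SE 0.22, limma adjusted p = 0.17). Krt19 lies in the type I cluster on chromosome 11, with Krt15 as its measured neighbour on one side and Krt14 on the other. Krt15, a keratin of basal epithelial cells, was near background on every array (difference -0.08, SE 0.07, limma adjusted p = 0.56). The higher signal of Krt19 was thus not shared by the nearest measured gene on either side. Of the other type I keratins measured on chromosome 11, Krt13 and Krt20 were called higher in KO and Krt16 lower, as given below.

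The promoters of Krt18 and Krt8 are shown because the genes are adjacent but differed in signal, and those of Vim and Lmna because both were higher in KO. Each is a window of 300 bases on GRCm38.p6, from 250 before to 50 after an annotated start. It is written 5′ to 3′ on the gene's strand and credited to RefSeq. Of the 10 genes, 8 had an entry. Krt19 and Lmnb1 had none, so their promoters could not be shown. Krt18 lies at chr15:102027966-102028265 on the plus strand, Krt8 at chr15:102004293-102004592 on the minus strand, Vim at chr2:13574061-13574360 on the plus strand and Lmna at chr3:88503303-88503602 on the minus strand. Capitals mark matches, on either strand, to 4 motifs. The TATA box was searched as TATAAA. The AP-1 motif was searched as TGANTCA. The Sp1 motif was searched as GGGCGG. The Ets motif was searched as CCGGAAG.
Krt18: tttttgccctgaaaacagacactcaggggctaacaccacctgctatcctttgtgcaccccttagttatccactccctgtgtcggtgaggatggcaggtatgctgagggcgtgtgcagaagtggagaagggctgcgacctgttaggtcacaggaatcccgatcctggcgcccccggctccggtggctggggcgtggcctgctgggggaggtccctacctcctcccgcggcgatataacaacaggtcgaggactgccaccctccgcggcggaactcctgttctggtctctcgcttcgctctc
Krt8: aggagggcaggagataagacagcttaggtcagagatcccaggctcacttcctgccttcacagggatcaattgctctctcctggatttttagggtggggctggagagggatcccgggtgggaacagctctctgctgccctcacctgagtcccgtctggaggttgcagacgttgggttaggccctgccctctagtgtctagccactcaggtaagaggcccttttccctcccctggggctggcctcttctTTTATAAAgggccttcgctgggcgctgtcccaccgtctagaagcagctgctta
Vim: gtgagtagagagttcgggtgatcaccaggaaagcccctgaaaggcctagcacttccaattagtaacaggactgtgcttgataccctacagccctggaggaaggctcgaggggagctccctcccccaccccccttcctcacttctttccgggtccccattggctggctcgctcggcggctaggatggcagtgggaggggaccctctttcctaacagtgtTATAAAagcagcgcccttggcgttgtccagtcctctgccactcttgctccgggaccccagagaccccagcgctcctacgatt
Lmna: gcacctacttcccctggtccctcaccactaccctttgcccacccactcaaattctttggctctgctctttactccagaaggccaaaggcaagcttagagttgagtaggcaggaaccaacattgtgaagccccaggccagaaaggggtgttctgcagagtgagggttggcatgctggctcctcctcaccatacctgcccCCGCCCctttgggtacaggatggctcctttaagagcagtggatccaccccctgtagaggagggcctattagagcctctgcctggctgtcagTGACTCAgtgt
The Krt18 window held none of the 4 motifs. The Krt8 window held TATAAA and its reverse complement overlapping at the annotated start, and the Vim window held TATAAA starting -32 bases from the start. The Lmna window shown held an AP-1 match, TGACTCA, 39 bases past the start and a Sp1 match on the other strand starting -52 bases from it. A second annotated Lmna start, with its window at chr3:88493263-88493562, had neither and held 1 Ets match starting -88 bases from that start. Of 32851 promoters in the table, 13.6% held the TATA box, 7.81% the AP-1 motif, 35.7% the Sp1 motif and 8.86% the Ets motif. These matches describe the letters of the windows only.

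Further keratins were measured, 15 of type I and 12 of type II in all. Of these 27 genes, 12 were near background on every array with a usable spot, where Krt1 had its spot on KO replicate 2 excluded. A further 7 were above background on every array. They were 3 of type I and 4 of type II, the latter being Krt4, Krt6a, Krt80 and Krt84. Another 3 were above background on all KO arrays and on no WT array, namely Krt18, Krt13 and Krt20, all of type I. For Krt20 this rests on WT replicates 1 and 3, since its spot on WT replicate 2 was excluded. Krt18 was chosen because it is higher in KO, and the share of all probes with this pattern was not counted. Nothing is thus read from this pattern. Of the 12 type I keratins besides Krt14, Krt18 and Krt19, 2 rose in KO, 1 fell and 9 did not pass limma's test, with a median log2 difference of 0.07. Under median scaling 4 of these genes were called higher and none lower. Of the 10 type II keratins besides Krt7 and Krt8, none rose (none at an unadjusted p under 0.05 either), 1 fell and 9 did not pass, with a median of -0.05. Over all probes 22.6% passed and the median was -0.01, against 25% of these type I and 10% of these type II genes.

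Krt13, a type I keratin of mucosal stratified epithelia, had intensities of 440, 569 and 442 in KO, against 15.2, 18.4 and 9.70 in WT. It rose at least 6.55-fold (log2 difference 2.78, SE 0.09, limma adjusted p = 8.9e-07). Krt20, a keratin of gut epithelium and urothelium, had 53.2, 47.6 and 70.9 in KO, against 10.3 and 11.0 in WT replicates 1 and 3. Its spot on WT replicate 2 was excluded, so the fit used 5 arrays, and it rose at least 1.44-fold (0.67, SE 0.12, limma adjusted p = 0.0082). Krt80, a type II keratin found near desmosomes and in differentiating epithelia, had 73.7, 90.0 and 63.1 in KO, against 129, 156 and 124 in WT, and fell 1.69-fold (-0.76, SE 0.07, limma adjusted p = 2.1e-04). Krt16, a keratin of activated epidermis, fell by 0.31 on the log2 scale (limma adjusted p = 0.012), a call lost with offset 0 (adjusted p = 0.079), under median scaling (0.052), with the authors' normalized values (0.11) and without WT replicate 1 (0.054). The 3 genes Krt13, Krt20 and Krt80 kept their calls wherever they were tested; with the replicate block or without WT replicate 1 or 3, Krt20 had too few WT values for a test.

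**Figure D2:**
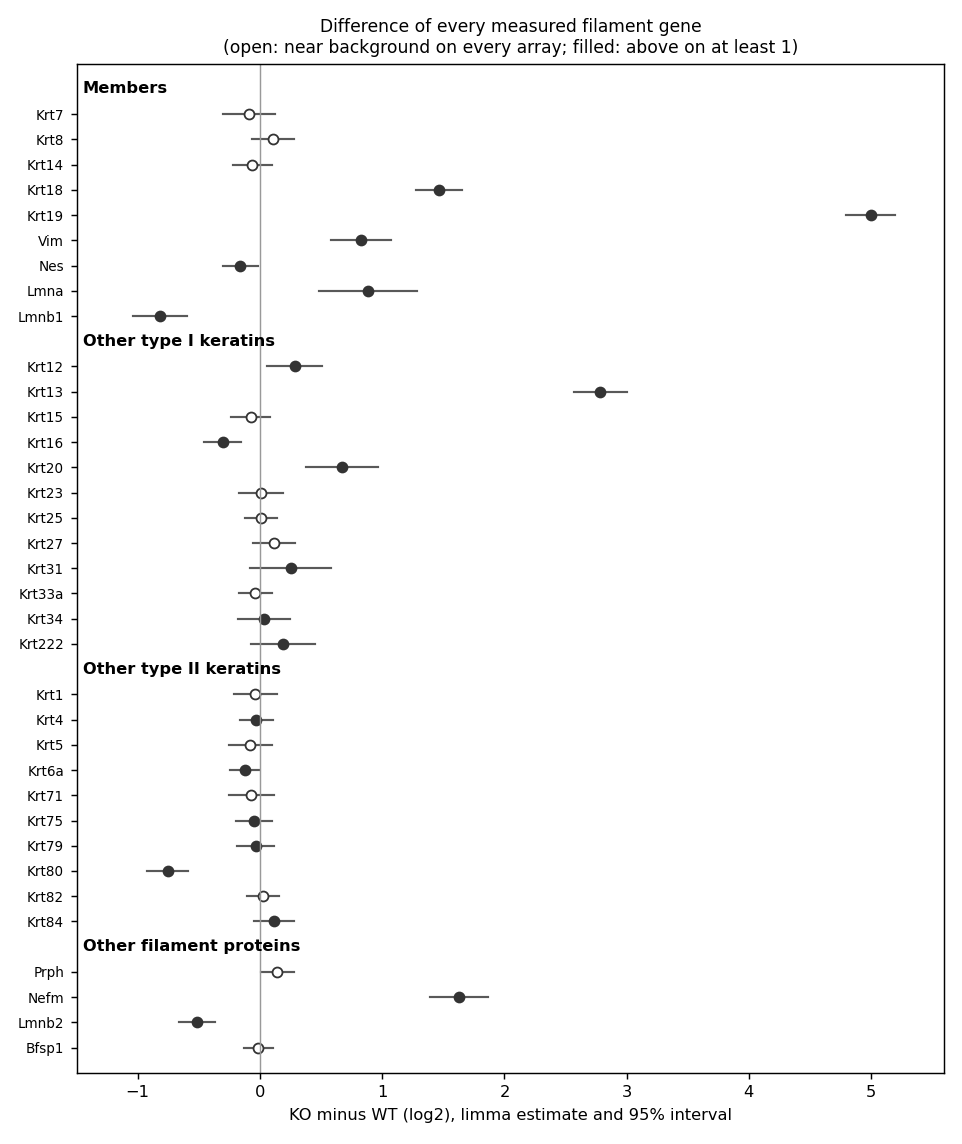
Log2 difference, KO minus WT, of each measured filament gene with limma's 95% interval (horizontal lines); open points were near background on every array. Krt19 at 5.0, Krt13 at 2.78, Nefm at 1.63 and Krt18 at 1.47 stand to the right, and Lmnb1 at -0.82 and Krt80 at -0.76 to the left.

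Vim encodes vimentin, the main filament protein of fibroblasts, and was strongly expressed in both genotypes. Its background-subtracted intensity was 21219, 20253 and 14889 in KO replicates 1, 2 and 3, against 10576, 10798 and 8584 in WT. The groups did not overlap, and the lowest KO value was 1.38 times the highest WT value. On the normalized log2 scale Vim stood at 14.18 ± 0.18 in KO and 13.35 ± 0.12 in WT (SD, n = 3 each), a 1.77-fold difference (0.83, SE 0.10, 95% interval 0.58 to 1.07). No Vim spot was marked saturated. The median pixel of the Vim spot was 67.9% to 74.6% of the spot mean on KO arrays and 81.2% to 88.6% on WT arrays, and with the spot median in place of the mean the difference was 0.58. The higher keratin signals in KO thus stood beside a vimentin signal that was also higher.

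Nes encodes nestin, a large filament protein that assembles with vimentin. Its intensity was 131, 135 and 121 in KO, against 124, 138 and 107 in WT, and these ranges overlapped. After quantile normalization Nes averaged 7.42 ± 0.05 in KO and 7.58 ± 0.08 in WT in log2 units (SD, n = 3 each), a difference of -0.16 (SE 0.06, 95% interval -0.30 to -0.01) that did not pass the threshold of the fit across all probes. Under median scaling it was -0.041. Of 4 other filament genes of types III to VI measured, Prph, Nefm, Lmnb2 and Bfsp1, 1 rose and 1 fell (50%, against 22.6% of all probes, median 0.07). Nefm, the medium neurofilament chain of neurons, had intensities of 131, 131 and 141 in KO, against 4.85 and 0.345 in WT replicates 1 and 3. With WT replicate 2 excluded, Nefm rose at least 2.39-fold (1.63, SE 0.10, limma adjusted p = 5.1e-05). With the replicate block or without WT replicate 1 or 3 it had too few WT values for a test. Prph, the peripherin gene of peripheral neurons, and Bfsp1, a lens filament gene, were near background on every array.

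The lamin genes differed in opposite directions. Lmna, which encodes lamins A and C, had intensities of 1012, 1053 and 981 in KO, against 482, 536 and 281 in WT. The KO cultures lay close together, and among the WT cultures replicate 3 was the low one. Lmna averaged 9.91 ± 0.11 in KO and 9.03 ± 0.38 in WT on the log2 scale (SD, n = 3 each), a 1.85-fold difference (0.89, SE 0.17, 95% interval 0.49 to 1.29), and 0.67 without WT replicate 3. Lmnb1, which encodes lamin B1 and is commonly used as a marker that falls in senescent cells, had 114, 119 and 133 in KO, against 195, 228 and 217 in WT. On that scale Lmnb1 averaged 7.37 ± 0.18 in KO and 8.19 ± 0.09 in WT (SD, n = 3 each), 1.76-fold lower in KO (-0.82, SE 0.10, 95% interval -1.04 to -0.59).

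The lamin groups did not overlap for either gene. The Lmna signal minus the Lmnb1 signal of the same array was 2.60, 2.56 and 2.48 log2 units in KO replicates 1, 2 and 3, against 1.13, 1.08 and 0.33 in WT, so the balance of the probes shifted by 1.70 toward Lmna in KO. Lmnb2, the other B-type lamin, had intensities of 1260, 1308 and 1133 in KO, against 1391, 1480 and 1451 in WT. It fell by 0.52 on the log2 scale (SE 0.06, limma adjusted p = 7.0e-04; 0.075 with the authors' normalized values). Both B-type lamin probes were thus lower in KO and the A-type probe higher.

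Of the 9 measured genes, 5 passed the threshold of 0.05 on limma's adjusted p, where 22.6% of all probes did. They were Krt19, Krt18, Vim and Lmna, higher in KO, and Lmnb1, lower in KO. Of all probes 10.4% passed as higher and 12.1% as lower. On the normalized log2 scale, non-overlapping KO and WT values were seen for 6 of the 9, against 36.0% of all probes. Among probes above background on at least 1 array, 40.2% passed and 55.0% had no overlap, and the 6 such genes of the set were Krt19, Krt18, Vim, Nes, Lmna and Lmnb1. The background-subtracted intensities of Nes did overlap, as given above. Of probes near background on all arrays 0.854% passed; the 3 such genes did not. Since the same contrast chose the genes, nothing is read from these counts. Their median log2 difference was 0.11. Among all probes, 2047 were called higher and 2372 lower in KO, so that 46.3% of calls were higher, against 64.1% under median scaling. With the authors' normalized values, Vim (0.63) and Lmna (1.01) no longer passed, and 2 of the 9 genes were called higher.

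The genes whose array profiles were nearest to that of Krt19 were sought among 5244 named genes above background on all KO arrays and with a value on every array, by the root mean square distance over the 6 arrays after centring each gene. They were Tac1, the substance P precursor (0.21 log2 units), Anxa8, an annexin (0.30), Aig1 (0.32), the matrix protease Mmp3 (0.36) and the Wnt modulator Dkk2 (0.36). Nearest to Krt18 were Fam110c (0.08), Sqor, a mitochondrial sulfide oxidoreductase (0.08), Dhrs3, a retinal reductase (0.08), Nap1l2 (0.08) and Rgl1, a Ral exchange factor (0.08). Of these 10 genes, 8 had no WT culture above background, so that their WT signal is a floor and the likeness rests largely on KO; Mmp3 and Sqor were measured in both genotypes. The distance follows the size of the KO to WT difference, which was 4.33 to 5.53 for the 5 genes nearest Krt19. For the 5 nearest Krt18 it was 1.34 to 1.48. No keratin was among either 5, and nothing about keratins is read from that.

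Genes that anchor, bind or modify filaments were read from lists. Their counts are set against the 22.6% of all probes that passed, and against 40.2% of probes above background on at least 1 array and 0.854% of those near background on all. Desmosomes tie keratins to the cell membrane, and 6 of the 13 desmosome genes listed were measured. Dsp, Jup and Pkp2 were among those not measured. Of the 6, none rose (none at an unadjusted p under 0.05 either) and 2 fell. The calls are 33.3% of the genes measured, with a median log2 difference of -0.05. Another 3 were near background on every array, namely the desmosomal cadherins Dsg2, Dsc2 and Dsc3. Perp, a desmosome and p53 target gene, had intensities of 6.40, -0.660 and 0.316 in KO, against 34.5, 36.0 and 31.8 in WT. It fell at least 1.30-fold (-0.71, SE 0.06, limma adjusted p = 1.6e-04), a call lost with the authors' normalized values (adjusted p = 0.19). Pkp3, a plakophilin, was above background only in 1 WT culture and lost its call (-0.27, limma adjusted p = 0.018) without KO replicate 1 (0.057), WT replicate 1 (0.075) or WT replicate 2 (0.072).

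Of 5 linker genes, 1 rose and 1 fell (40.0%, against 40.2% of probes above background somewhere and 22.6% of all, median 0.04). Syne3, which encodes nesprin-3, the outer nuclear membrane protein that binds filaments through plectin, had intensities of 2095, 2538 and 1235 in KO, against 553, 501 and 422 in WT. It rose 2.87-fold (1.52, SE 0.17, limma adjusted p = 4.3e-04), and KO replicate 3 was the lowest of the KO cultures. Ppl, the desmosomal linker periplakin, fell 1.29-fold (-0.37, SE 0.06, limma adjusted p = 0.0022). Of 9 genes for lamin processing and nuclear envelope partners, 1 rose and 1 fell (22.2%, at the 22.6% of all probes, median -0.03). Fntb, the beta subunit of the farnesyltransferase that modifies lamins and Ras, had 338, 330 and 327 in KO, against 527, 554 and 498 in WT, and fell 1.82-fold (-0.86, SE 0.07, limma adjusted p = 7.7e-05). Tor1aip1, a lamina-binding membrane protein, rose 1.38-fold (0.46, limma adjusted p = 0.0078), a call lost with offset 0 (0.063) and with the authors' normalized values (0.088). Without KO replicate 3, 3 genes of this list were called higher and 2 lower.

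Filament kinases, phosphatases and binding regulators had 8 of 19 genes higher and none lower (none at an unadjusted p under 0.05 either), with a median log2 difference of 0.17. That is 42.1% of the list, near the 40.2% of probes above background on at least 1 array, as 18 of these 19 genes were. The 40.2% counts calls in either direction, whereas all 8 calls here were higher. Of all probes 10.4% passed as higher and 12.1% as lower. Cryab and Hspb1 encode small heat shock proteins that bind intermediate filaments. Cryab had intensities of 5451, 5146 and 4171 in KO, against 199, 237 and 170 in WT, and rose 16.5-fold (4.04, SE 0.08, limma adjusted p = 8.1e-08). Hspb1 had 250.4, 292 and 297 in KO, against 38.5, 51.8 and 37.5 in WT, and rose 3.02-fold (1.59, SE 0.11, limma adjusted p = 3.9e-05). Ywhae, a 14-3-3 protein, rose 1.21-fold (0.28, limma adjusted p = 0.015), and Rock2, a kinase that phosphorylates vimentin, rose 1.48-fold (0.56, limma adjusted p = 0.019). The calls of the last pair were not stable: over the other settings the adjusted p reached 0.42 for Ywhae and 0.085 for Rock2. The count of genes higher was 5 without KO replicate 1, 4 without KO replicate 2, 3 without WT replicate 2 and 2 without WT replicate 1 or 3, and 2 with offset 0 or with the authors' normalized values.

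Of 16 transcription factors listed for a possible action on simple keratin genes, 2 rose and none fell (1 lower at an unadjusted p under 0.05, and 2 called lower without KO replicate 3). Whether each acts on such genes in these cells was not tested. That is 12.5%, below the 22.6% of all probes, with a median of -0.03. Klf5, a factor of proliferating epithelial cells, had intensities of 1173, 1273 and 1217 in KO, against 258, 298 and 236 in WT. It rose 3.30-fold (1.72, SE 0.09, limma adjusted p = 8.6e-06). Klf4, a related factor of differentiating epithelia, had 3420, 3407 and 1914 in KO, against 566, 575 and 631 in WT, and rose 3.64-fold (1.86, SE 0.16, limma adjusted p = 1.2e-04). Both calls held under all 14 other settings tried. The epithelial factors Grhl2, Trp63, Cdx2 and Tfap2a were near background on every array, as were Ets2, Fos and Junb. The other AP-1 genes measured, Jun, Jund, Fosb, Fosl1 and Fosl2 were above background on every array and did not pass.

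**Figure D3:**
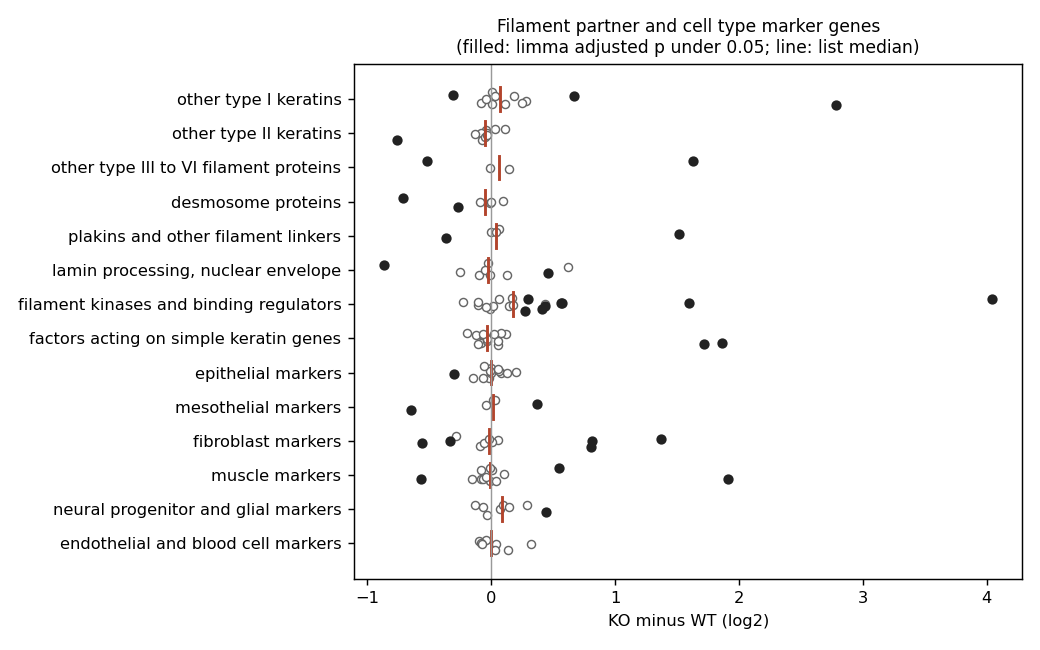
Log2 difference, KO minus WT, of each measured gene of the filament partner and cell type marker lists (1 point a gene, filled where limma's adjusted p was under 0.05, with a vertical line at the list median). Cryab at 4.04 and Krt13 at 2.78 lie farthest to the right, and the epithelial markers lie close to 0.

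Markers of cell types that carry keratins were read beside the keratin signals. Of 13 epithelial markers measured, none rose (1 higher at an unadjusted p under 0.05), 1 fell and 10 were near background on every array, among them the defining genes Cdh1 and Epcam. The list's 7.69% called stands against 22.6% of all probes and 0.854% of probes near background on all arrays, and its median difference was -0.0032. The summed background-subtracted intensity of the list, not scaled between arrays, was 99.9 to 125 in KO and 93.1 to 106 in WT. Muc1, a membrane mucin named here after its value was seen, was above background in 3 KO and no WT cultures and did not pass (0.20, SE 0.08, limma adjusted p = 0.11). Cldn6, an epithelial claudin near background in all KO cultures, fell at least 1.09-fold (-0.30, limma adjusted p = 0.014), and it lost that call with offset 0 (0.053), with the authors' normalized values (0.10) and without any 1 WT replicate (0.050 to 0.063).

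Mesothelial cells express both keratins and vimentin. Of 5 mesothelial markers, 1 rose and 1 fell (40.0%, against 22.6% of all probes and 40.2% of those above background somewhere, median 0.02), with summed intensities of 229 to 237 in KO and 232 to 293 in WT. Msln, the mesothelin gene, had 68.4, 70.8 and 52.2 in KO, against 25.3, 32.8 and 29.1 in WT, and rose 1.29-fold (0.37, SE 0.06, limma adjusted p = 0.0035). The size of that fold depends on the constant added to every signal: with offset 0 the log2 difference of Msln was 0.77. Upk1b, a uroplakin, fell 1.56-fold (-0.64, SE 0.11, limma adjusted p = 0.0040), a call lost with the authors' normalized values (0.054). Wt1 and Podxl were near background on every array. The part of Msln-expressing cells in the keratin signals was not tested.

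Fibroblast markers had 3 of 11 genes higher and 2 lower (45.5%, against 40.2% of probes above background on at least 1 array and 22.6% of all, median -0.02). Their summed intensities were 10757 to 12622 in KO and 6104 to 6931 in WT, of which Sparc alone supplied 8221 to 9740 in KO and 4195 to 4690 in WT. Prrx1, a mesenchymal homeobox factor, rose 2.60-fold (1.38, SE 0.07, limma adjusted p = 5.6e-06), the matrix glycoprotein gene Sparc 1.76-fold (0.81, adjusted p = 9.3e-05 in limma) and Col6a1, a collagen VI chain, 1.75-fold (0.80, adjusted p = 6.5e-04 in limma). Pdgfrb, a PDGF receptor, fell 1.47-fold (-0.56, limma adjusted p = 0.0012), a call lost with the authors' normalized values (0.067).

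Muscle markers, read for desmin's tissue, had 2 of 13 genes higher, 1 lower and 7 near background on every array (23.1% called, against 22.6% of all probes, median -0.01). Their summed intensities were 2288 to 2814 in KO and 1415 to 1759 in WT, of which Acta2 alone supplied 1652 to 2094 in KO and 915 to 1159 in WT. Cnn1, the smooth muscle calponin, rose at least 3.17-fold (1.91, SE 0.05, limma adjusted p = 2.8e-07), Acta2, smooth muscle actin, 1.46-fold (0.55, limma adjusted p = 6.6e-04, and 0.052 with the authors' normalized values), and Smtn, smoothelin, fell 1.48-fold (-0.56, limma adjusted p = 7.3e-04). The skeletal muscle genes Myog, Myf5, Myf6 and Ckm were near background on every array.

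Neural progenitor and glial markers, read for nestin, had 1 of 8 genes higher and none lower (none at an unadjusted p under 0.05 either), with 5 near background on every array (12.5% called, against 22.6% of all probes, median 0.09). The count of higher genes was 2 without KO replicate 3 and with array weights, and 0 among probes above background on at least 3 arrays. Summed intensities were 85.4 to 136 in KO and 47.8 to 64.6 in WT. Sox2, a stem cell factor above background in only 1 KO culture, was that gene (0.45, SE 0.08, limma adjusted p = 0.0062). Of 8 endothelial and blood cell markers none passed limma in either direction (1 higher and none lower at an unadjusted p under 0.05), and 7 were near background on every array, where 0.854% of all such probes passed; the list's median was -0.0030. Their summed intensities were 1427 to 1926 in KO and 940.0 to 1311 in WT, nearly all from Cd14, a lipopolysaccharide co-receptor (0.32, SE 0.11, limma adjusted p = 0.075). Tek, an endothelial receptor, was near background on every array (0.14, limma adjusted p = 0.29). Either or both of Cd14 and Tek passed with array weights (0.023 and 0.039), without KO replicate 3 (0.028 and 0.041), without WT replicate 1 (Cd14, 0.010), with the replicate block (Cd14, 0.027) and without background correction (Tek, 0.037).

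**Figure D4:**
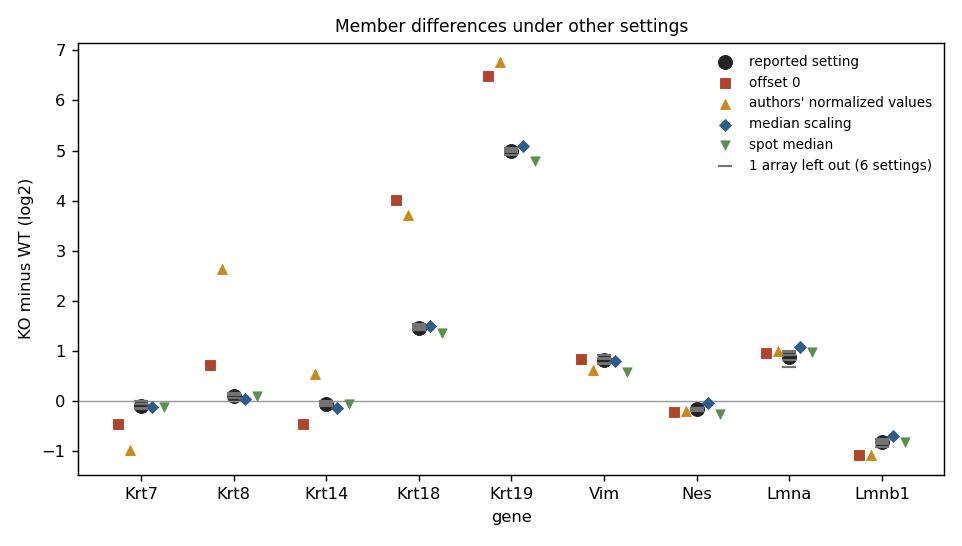
Log2 difference, KO minus WT, of the 9 genes under the reported setting (black circles) and other settings, with grey dashes for the 6 fits that leave out 1 array. Krt19 and Krt18 grow to 6.49 and 4.003 with offset 0, while Vim, Lmna and Lmnb1 stay on their side of 0 under every setting drawn; Krt7, Krt8 and Krt14, near background on all arrays, scatter widely once no constant is added.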

How the data were processed

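RNA of 3 KO and 3 WT cultures was measured on CodeLink 20K mouse arrays. The deposited scanner files give spot and local background intensity values for 1 channel. The deposited expression value is the mean spot minus the median background, and the authors' normalized intensity is that value divided by 1 constant per array. The submitters' processing notes name limma without a version; the image software was not given in the sources used here. A deposited value table repeats the authors' normalized intensities (column medians 0.961 to 0.974), with the columns of KO replicates 2 and 3 exchanged (99.7% of 19800 rows equal), as are the names inside those 2 files. Replicates follow the sample titles.

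Background was corrected with normexp (offset 50), spots with a masked, contaminated or irregular mark were dropped, control spots were dropped, and log2 values were quantile normalized. A probe with at least 2 values per genotype was tested in limma 3.58.1 (R 4.3.3), 19590 probes in all, with two-sided p-values adjusted by Benjamini-Hochberg over the whole table and a threshold of 0.05. The limma fit alone was tested on simulated log2 values, with the same SD for every probe and changes added only to brighter probes. Background correction, normalization and changes in dim probes were not covered by it. Above or near background is the scanner software's mark. Of the 19801 gene probes, 10813 were named, 10712 by unversioned RefSeq accession and 101 by a unique synonym in the GRCm38.p6 gene table. In lists, a gene was represented by its brightest probe. Folds were taken on the scale with the constant added, which makes the folds of dim genes smaller than without it. From each list up to 4 genes with the smallest adjusted p past the threshold are named, or 2 where none passed, and for Krt19 and Krt18 the 5 nearest profiles. The genes and lists were chosen with earlier results of these data known. Same-numbered KO and WT arrays had correlations of deviations from the group means of 0.24, -0.12 and 0.10, so numbers were not taken as pairs.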

Additional observations from a re-analysis of the deposited data

How the results depend on the processing

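The differences of Krt19, Krt18, Vim, Lmna and Lmnb1 kept their direction under all 14 other settings. With 1 array left out they ranged from 4.91 to 5.05 for Krt19, 1.41 to 1.53 for Krt18, 0.73 to 0.91 for Vim, 0.67 to 1.01 for Lmna and -0.92 to -0.75 for Lmnb1, and Nes from -0.20 to -0.13. With offset 0, which stops pulling dim differences toward 0, the log2 differences were -0.45 for Krt7, 0.72 for Krt8, -0.46 for Krt14, 4.003 for Krt18, 6.49 for Krt19 and -1.07 for Lmnb1, and 2717 probes were called, 1331 of them lower. With the authors' normalized values they were -0.98 for Krt7, 2.63 for Krt8, 0.54 for Krt14, 3.71 for Krt18, 6.76 for Krt19, 0.63 for Vim and -1.08 for Lmnb1, with 2 of the 9 genes called higher; 2096 probes were called, 1149 higher and 947 lower, and 20 genes of the lists against 34. The spot median gave 4.78 for Krt19, 0.58 for Vim and -0.27 for Nes. Median scaling gave -0.041 for Nes and 1345 probes lower. With the replicate block 4299 probes were called, against 4419 without it, and no call of the 9 genes changed. With 1 array left out 3177 to 5798 probes were called. Over the genes named from lists, 33 of the refits lost a call and 7 gained one; none changed direction. Signals near background limit Krt7, Krt8 and Krt14 in both genotypes and Krt18 in WT. Where no value bears on it, the cause of a shift was not tested.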
